A study of Xenopus laevis with 6 samples.

Results

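The genes described are fli1.S, aplnr.L, aplnr.S, hba-l5.L, hba3.L, ank1.S and cebpa.S, 7 vascular and blood genes of Xenopus laevis, among 7531 genes that the array names singly. They are all probe sets that the platform's gene table maps to these symbols alone, which gave 7 probe sets, 1 for each gene, of 15491. RNA came from pronephric explants, small blocks cut from both flanks of stage 24 embryos over the rudiment of the larval kidney. One group of 3 pools was untreated. The other group of 3 pools was treated with bhh, banded hedgehog, a secreted hedgehog ligand whose gene is now named ihh, and no mock-treated group is named. Each pool of 300 explants was measured on its own Affymetrix array, and nothing in the labels says whether the pools came from separate batches of embryos, so the spread between arrays may be in part technical. How bhh was given, and for how long, is not stated. Mean signal of the ligand's own probe set, ihh.S, was 22.7 ± 11.7 in untreated explants and 2967 ± 149 in treated ones (SD, n = 3 each).

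In the frog embryo, blood and vessel cells arise from lateral plate mesoderm, and its dorsal part lies beside the pronephric rudiment. fli1 encodes an ETS-family transcription factor that acts early in the network that sets up blood and endothelial precursors. aplnr encodes the apelin receptor, a G protein-coupled receptor known in Xenopus from endothelial precursors. The alpha globin genes hba-l5 and hba3 encode oxygen carriers of red cells, and ank1 encodes the ankyrin that ties the spectrin skeleton of the red cell to its membrane. cebpa encodes a leucine zipper transcription factor known in mammals from myeloid, liver and fat cells. Many X. laevis genes exist as duplicates, named .L and .S after the long and short chromosome sets they lie on.

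With bhh treatment the 7 genes split in direction. The transcription factor genes fli1.S and cebpa.S and the red cell skeleton gene ank1.S had lower signals, and both apelin receptor copies and both alpha globins had higher mean signals, 4 genes with a log2 difference above 0, as had 50.5% of all tested probe sets. The 7 genes were chosen with results of this comparison known, so their values are given as a description and without a test. The 3 arrays of a group lay wholly to one side of the other group for 5 of the 7, 2 higher and 3 lower, and for aplnr.L and hba-l5.L the groups overlapped. Among the 11618 probe sets tested, the groups failed to overlap for 18.3%, 9.3% higher and 9.01% lower, and nothing is read from the count of the 7 against this. In whole explants, fewer cells of a type and less RNA per cell cannot be told apart.

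**Figure D1:**
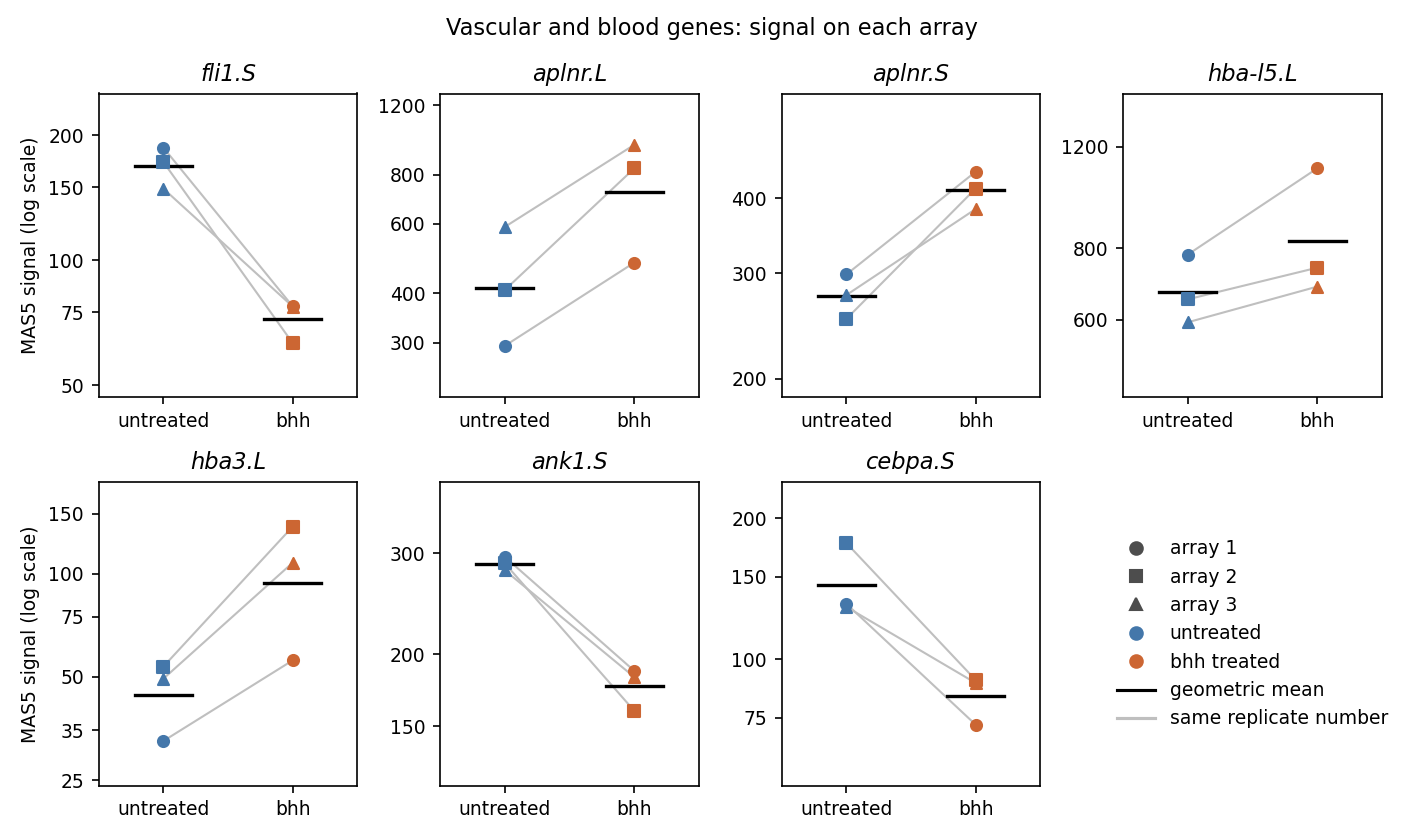
Signal of each of the 7 genes on each array (MAS5 signal, log scale, a separate axis for each gene), with untreated arrays on the left and bhh-treated arrays on the right. Symbols mark the replicate number, grey lines join arrays of the same number and black bars are geometric means. In every panel the 3 grey lines run in the same direction, which is fixed in advance where the groups do not overlap. The genes were chosen with results of this comparison known, so nothing is read from it. The groups overlap for aplnr.L and hba-l5.L.

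The ETS factor gene fli1.S had signals of 186.9, 172.6 and 148.9 on untreated arrays 1, 2 and 3, and of 77.5, 63.2 and 77.4 on treated arrays 1, 2 and 3. The lowest untreated array was thus well above the highest treated one. The means were 169.5 ± 19.2 in untreated and 72.7 ± 8.23 in treated explants (SD, n = 3 each), 2.33-fold lower, with a log2 difference of -1.22 ± 0.21 (SE). Between arrays of the same replicate number the log2 difference was -1.27, -1.45 and -0.94. All 6 signals were above 37.6, the 95th percentile of the bacterial and tag control probe sets, used here as the background level.

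cebpa.S had signals of 131.3, 177.1 and 129.3 on the untreated arrays and of 72.4, 90.2 and 88.9 on the treated ones. The groups did not overlap, and the untreated arrays spread more widely. Its means were 146 ± 27.0 and 83.8 ± 9.92, 1.73-fold lower, with a log2 difference of -0.79 ± 0.22 (SE). The other copy, cebpa.L, is not among the 7 genes. It had 90.5 ± 4.28 in untreated and 89.9 ± 11.4 in treated explants, a log2 difference of -0.02 ± 0.21 that did not pass the limma test (adjusted p = 0.984). The difference between the 2 copies was not tested, since cebpa.S was chosen on this comparison.

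The red cell ankyrin gene ank1.S gave the tightest values of the 7. Its signals were 295.5, 288.0 and 280.1 on the untreated arrays and 187.3, 159.6 and 182.7 on the treated ones. No treated array came near the untreated range. The means were 288 ± 7.70 and 176.5 ± 14.8, 1.63-fold lower, with a log2 difference of -0.71 ± 0.16 (SE). By replicate number the log2 difference was -0.66, -0.85 and -0.62.

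Both copies of the apelin receptor gene had higher mean signals after treatment. aplnr.S had signals of 298.4, 251.6 and 275.7 on the untreated arrays and of 442.6, 415.0 and 383.6 on the treated ones, and the groups did not overlap. Its means were 275 ± 23.4 and 414 ± 29.5, with a log2 difference of 0.59 ± 0.15 (SE).

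aplnr.L had signals of 294.3, 407.9 and 589.8 on the untreated arrays and of 478.5, 830.0 and 952.9 on the treated ones. Array 1 was the lowest in both groups, and treated array 1 lay below untreated array 3, so the groups overlapped. Its means were 431 ± 149 and 754 ± 246, 1.75-fold higher, with a log2 difference of 0.81 ± 0.28 (SE). Between arrays of the same number the log2 difference was 0.70, 1.02 and 0.69. The within-group SD on the log2 scale was 0.51 for aplnr.L and 0.11 for aplnr.S, so the .L copy varied more between arrays. Whether the copies differ in response was not tested.

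The alpha globin gene hba3.L, listed in RefSeq also under the older name Ta-globin, was dim. Its signals were 32.5, 53.6 and 49.4 on the untreated arrays and 55.9, 137.4 and 107.8 on the treated ones. The groups did not overlap, but treated array 1 exceeded untreated array 2 by little, and untreated array 1 was below the background level. The means were 45.2 ± 11.2 and 100.4 ± 41.3, 2.13-fold higher, with a log2 difference of 1.09 ± 0.35 (SE). A further probe set maps to both hba3.L and hba4.S and cannot be assigned to either. It had signals of 52.1, 126.7 and 114.4 on the untreated arrays and of 175.6, 143.7 and 141.4 on the treated ones, a log2 difference of 0.75 ± 0.31 (SE) with no overlap. By replicate number its difference was 1.75, 0.18 and 0.31. It did not pass the limma test (adjusted p = 0.371, and 0.105 with the replicate number as a block).

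The second alpha globin gene, hba-l5.L, was measured far above background. Its signals were 779.6, 651.6 and 594.3 on the untreated arrays and 1101.0, 739.5 and 685.5 on the treated ones. Array 1 was the highest in both groups, and the groups overlapped. The means were 675 ± 94.9 and 842 ± 226, 1.23-fold higher, with a log2 difference of 0.30 ± 0.19 (SE). Without treated array 1 the log2 difference was 0.09. By replicate number it was 0.50, 0.18 and 0.21.

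In both groups the array numbered 1 thus gave the lowest signal for aplnr.L and hba3.L and the highest for hba-l5.L. The probe set shared by hba3.L and hba4.S was lowest on untreated array 1 and highest on treated array 1. The arrays numbered 1 also had the highest median signal of the hybridization control probe sets, 2235 in untreated and 1795 in treated. On the other 4 arrays it was 780 to 1393. The GAPDH 3' to 5' signal ratio, a measure of RNA integrity, was 4.10 and 4.42 on the arrays numbered 1 and 3.01 to 3.67 on the others. The part of either in these signals was not tested. Without both arrays numbered 1, the log2 difference was 0.86 for aplnr.L, 1.24 for hba3.L and 0.19 for hba-l5.L.

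**Figure D2:**
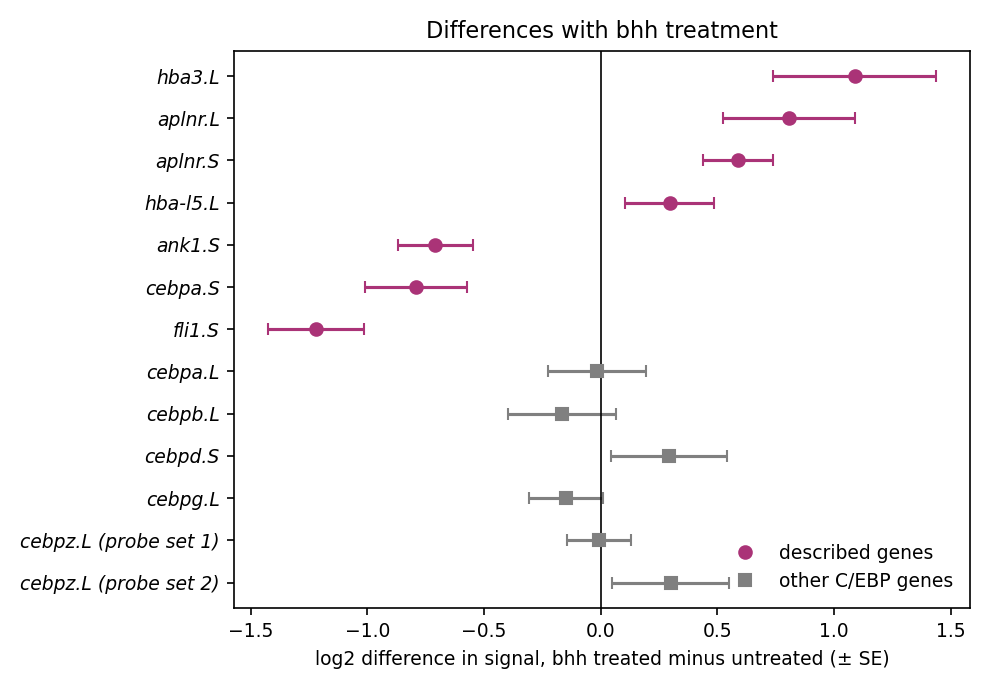
Log2 difference in signal, bhh treated minus untreated, with its SE, for the 7 genes (circles) and for the other C/EBP genes that were bright enough to test (squares). fli1.S at -1.22 and hba3.L at 1.09 mark the ends, and the C/EBP squares lie between -0.16 and 0.30.

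No probe set is mapped singly to the other copies of fli1, hba-l5, hba3 and ank1, so those copies could not be examined. Of 12 further probe sets from the globin and C/EBP families, 6 were bright enough to be tested and none passed the limma test, without or with the replicate block, and none had an unadjusted p under 0.05. Their log2 differences lay between -0.16 for cebpb.L and 0.30 for a probe set of cebpz.L, with the smallest adjusted p at 0.690. By comparison, 1.38% of all tested probe sets passed, 0.74% higher and 0.637% lower, and 6.31% with the replicate block.

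The globin genes of the array were dim as a group, hba-l5.L excepted. hba2.L had mean signals of 11.6 in untreated and 6.73 in treated explants, hba4.S 17.9 and 20.5, and hbg1.L, a beta-like globin gene, 15.8 and 16.1. In all 3 both means lay below the background level, so no fold is given. hba1.S (48.4 and 34.3), hbd.S (31.9 and 42.9) and hbg2.L (46.8 and 48.4) lay around it, with overlapping groups, and none of these 6 passed the filter on dim probe sets. In the Xenopus_laevis_v10.1 assembly, used here for gene order only, hba2.L and hba3.L are direct neighbours on chromosome 9_10L. hba-l5.L lies in the same cluster, with 3 annotated genes between it and hba3.L, and hbg1.L lies beyond hba3.L. hba-l5.L and hba3.L thus share a cluster with hba2.L and hbg1.L, whose signals stayed below background in both groups.

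**Figure D3:**
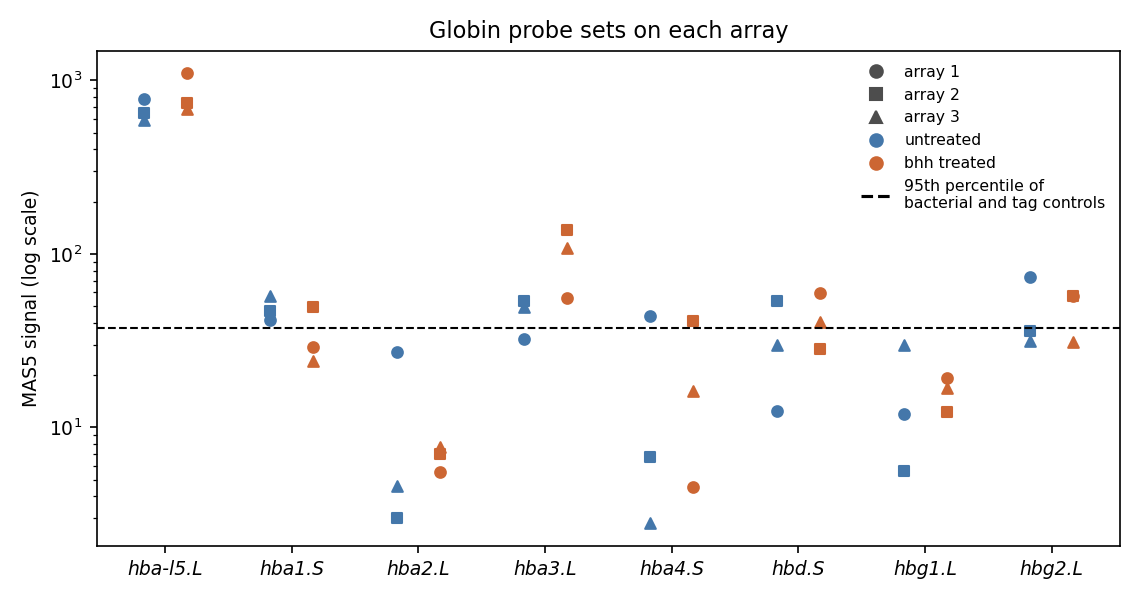
Signal of the 8 globin probe sets on each array (log scale), untreated in blue and bhh treated in orange, with symbols for the replicate number. The dashed line is the background level of 37.6; hba-l5.L lies above it on all 6 arrays, hba3.L on 5 of 6, and hba2.L and hbg1.L on none.

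Other vascular and blood genes were taken from 7 lists chosen by name. The lists held 91 genes of the array, of which 60 were bright enough to test and 53 were not among the 7 genes described above. At the brightest probe set of each, none of the 53 passed the limma test (unadjusted p under 0.05 for 3 higher and 5 lower). Of all tested probe sets, 12.2% had an unadjusted p under 0.05. With the replicate block 1 of the 53 was higher and 1 lower, while 6.31% of all tested probe sets passed that fit. The median log2 difference of the 53 was 0.05, beside 0.003 over all tested probe sets, and 29 of them were above 0. The groups did not overlap for 14 of the 53, or 26.4%, beside 18.3% of all tested probe sets.

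Among endothelial transcription factor genes, 6 besides fli1.S were tested and none passed the limma test, with none at an unadjusted p under 0.05. The ETS factor gene ets2.L had a log2 difference of 0.26 ± 0.23 (SE, adjusted p = 0.719), its relative ets1.S had -0.29 ± 0.28 and the venous regulator gene nr2f2.L had 0.14 ± 0.14. The list's median without fli1.S was 0.09. hhex.L, klf2.S, prox1.L and sox18.L had means below background in both groups.

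Of the endothelial receptor and surface protein genes, 6 besides the apelin receptors were tested and none passed (unadjusted p under 0.05 for 0 higher and 1 lower). The chemokine receptor gene cxcr4.S had signals of 315.6, 355.1 and 371.5 on the untreated arrays and of 218.3, 249.4 and 261.8 on the treated ones. All its treated signals lay below the untreated ones, with a log2 difference of -0.52 ± 0.16 (SE). The limma adjusted p was 0.193, and 0.0378 when the array number entered as the replicate block. The .L copy, cxcr4.L, had -0.07 ± 0.25. calcrl.L, which encodes a receptor for adrenomedullin and related peptides, had -0.41 ± 0.20 (adjusted p = 0.445), and the Eph receptor gene ephb4.L of veins had 0.11 ± 0.13. The defining endothelial genes flt1.L, pecam1.L and tek.S, and nrp1.L, had means below background in both groups. Other endothelial genes of the list were above it. egfl7.S had means of 274 in untreated and 269 in treated explants, a log2 difference of -0.02 ± 0.16 (SE). cldn5.S had 112 and 125, a log2 difference of 0.21 ± 0.29. The list's median without the apelin receptors was -0.04.

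Of the ligand genes only efnb2.S and pdgfa.S could be tested, and neither passed in limma nor had an unadjusted p under 0.05. Their log2 differences were -0.15 ± 0.27 and -0.11 ± 0.33 (SE). The vessel growth factor gene vegfa.L was too dim to test, with 47.1 ± 8.71 in untreated and 36.8 ± 5.95 in treated explants.

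The 14 tested blood and vessel progenitor factor genes gave none past the limma test (unadjusted p under 0.05 for 1 higher and 2 lower), with a median log2 difference of 0.07. lmo2.S, which encodes a bridging protein of the blood and endothelial transcription complex, had signals of 570.5, 590.0 and 593.5 on the untreated arrays and of 414.8, 448.6 and 477.2 on the treated ones. The groups did not overlap, with a log2 difference of -0.39 ± 0.13 (SE, adjusted p = 0.251). gata2.L, a GATA factor gene of blood progenitors, had the opposite sign at both of its probe sets, 0.41 ± 0.14 at the brighter one (adjusted p = 0.266) and 0.40 ± 0.16 at the other. kit.L, a receptor tyrosine kinase gene, had -0.65 ± 0.28 (adjusted p = 0.391). The .S copy, kit.S, had the opposite sign at its only tested probe set, 0.38 ± 0.22 (adjusted p = 0.533). The 2 probe sets of tal1.S, a blood and endothelial master regulator gene, disagreed in sign, -0.31 ± 0.26 and 0.18 ± 0.26. gata1.S, runx1.L and myb.S were below background in both groups. The .L copy, gata1.L, had means of 47.2 and 57.0, with 2 arrays below background. Its log2 difference was 0.39 ± 0.36 (limma adjusted p = 0.723).

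None of the 16 tested erythroid genes other than ank1.S passed the limma test at its brightest probe set (unadjusted p under 0.05 for 1 higher and 2 lower), and the list's median was -0.13. The carbonic anhydrase gene ca2.L had -0.32 ± 0.13 (SE, adjusted p = 0.333), the heme-binding protein gene hebp1.L had -0.34 ± 0.14 (adjusted p = 0.353) and the heme synthesis gene fech.L had 0.49 ± 0.20 (adjusted p = 0.362). The anion exchanger gene slc4a1.L, a partner of ankyrin in the red cell membrane, had 347 ± 107.5 in untreated and 428 ± 139 in treated explants, a log2 difference of 0.29 ± 0.29 (adjusted p = 0.739). The heme-binding protein gene hebp2.S had 0.45 ± 0.23, with an adjusted p of 0.463 in limma and of 0.0185 once the replicate block was added.

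Of 11 tested dimmer probe sets of the erythroid list, 3 passed, beside 1.38% of all tested probe sets. The 11 include several probe sets of the same genes and were singled out after their values were seen. Nothing is read from their count against that share. Over all the lists, these 3 were the only called probe sets of genes other than those described. One probe set mapped to nfe2.S, an erythroid and platelet factor gene, fell from 713 ± 106 to 392 ± 65.0. Its log2 difference was -0.86 ± 0.17 (SE, limma adjusted p = 0.0322). The other 3 tested probe sets of nfe2.S did not pass and differed in sign, -0.42 ± 0.17, -0.10 ± 0.13 at the brightest and 0.55 ± 0.23. The platform's mapping may be wrong for some of them, and this was not checked. One of glrx5.L, a gene for iron-sulfur cluster assembly, fell, with a log2 difference of -0.62 ± 0.13 (adjusted p = 0.0475), while its brighter one had -0.20 ± 0.12. One of hebp2.S rose by 0.64 ± 0.14 (adjusted p = 0.0498). Leaving out 1 array at a time, the nfe2.S call held only without treated array 1 and the hebp2.S call only without untreated array 1, and the glrx5.L call was lost each time. Adjusted p then reached 0.175 for nfe2.S, 0.28 for glrx5.L and 0.223 for hebp2.S. With the replicate block and no array left out, the limma adjusted p was 0.000438 for nfe2.S, 0.00527 for glrx5.L and 0.00155 for hebp2.S. The other dimmer hebp2.S probe sets had 0.0363 and 0.045 in that fit.

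None of the 9 tested myeloid and leukocyte genes other than cebpa.S passed the limma test (unadjusted p under 0.05 for 1 higher and 0 lower), and their median log2 difference was 0.19. Both copies of the peroxidase gene mpo, mpo.S and mpo.L, had positive differences without overlap, 0.43 ± 0.17 (SE, adjusted p = 0.334) and 0.42 ± 0.20 (adjusted p = 0.423). For mpo.L the lowest treated signal, 451.1, exceeded the highest untreated one, 447.3, by little. Of all tested probe sets, 9.3% were higher without overlap. cyba.L, for a subunit of the phagocyte oxidase, had 0.37 ± 0.18 (adjusted p = 0.436). ptprc.L, the general leukocyte marker gene, was below background in both groups, as were lyz.L, mmp7.L and plek.L.

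**Figure D4:**
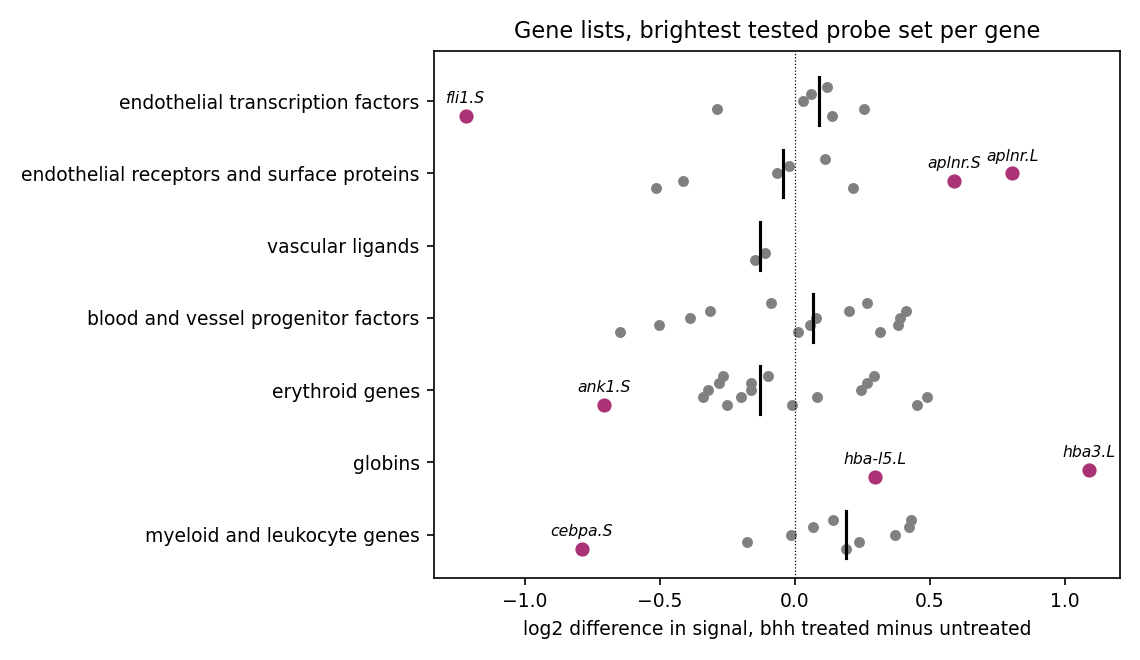
Log2 difference in signal, bhh treated minus untreated, for each tested gene of the 7 lists at its brightest probe set (grey points), with the 7 described genes in purple and named. Black bars are list medians without the described genes; the other genes lie between -0.65 and 0.49, and their medians between -0.13 and 0.19.

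The probe sets whose pattern over all 6 arrays was most like that of fli1.S, by Pearson correlation of log2 signal, were those of washc3.L (0.995), tgm2.L (0.995), tmem38a.L (0.988) and cacfd1.S (0.986). Of these tgm2.L, a transglutaminase gene, had a log2 difference of -1.05 ± 0.14 (SE), and the others had -0.29 to -0.50. Nearest to hba3.L were the mitochondrial ribosome gene mrps26.L (0.992), the protocadherin gene pcdh8l.S (0.982), the DNA repair gene neil3.L (0.978) and mrps33.L (0.978). Their log2 differences lay between 0.20 for mrps26.L and 0.73 for pcdh8l.S. All these probe sets were picked for likeness to genes chosen on this comparison, so they are described without a test. These correlations are over 6 arrays that share the group difference and the array numbers.

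Markers of some other tissues, though not of all, differed between the groups in the same samples. Of 10 tested pronephric genes, 3 fell and 1 rose, and their summed signal was 2428 to 2708 on untreated and 1217 to 1327 on treated arrays. The fallen genes fxyd2.S, lhx1.L and mecom.L had group means that summed to 1434 and 91.2, while those of the other 7 summed to 1172 and 1179. That second pair of sums mixes directions. The gene that rose was osr1.L, from 142.5 to 282.3. Lower means that did not pass were those of irx1.L (226 and 162), irx3.L (229 and 198.5), pax2.L (104 and 67.1), pax8.L (62.6 and 49.8) and wt1.L (66.5 and 43.1). For gata3.S the means were 342 and 376. The kidney genes lhx1.L and fxyd2.S were well above background in the untreated explants, which the labels call pronephric. The sums given next are over all genes of a list on the array, tested or not. Of 9 tested heart and lateral plate genes, 3 rose, and the sums over 18 genes were 3267 to 3371 and 5883 to 5963. Means of myh6.S, nkx2-5.S, tbx20.L, tbx5.S, tnni3.L and tnni3.S lay below background in both groups. Those of tbx5.L (26.6 and 52.8) and gata4.S (21.7 and 45.5) were below it in untreated and above it in treated explants. Both were too dim to test. Of 14 tested somite muscle genes, 2 fell (sums over 15 genes 109700 to 125400 and 80880 to 99370). With the replicate block, 6 heart and lateral plate genes were higher, and 8 somite muscle genes were lower and 1 higher. None passed among 5 tested epidermal, 7 neural, 5 endoderm and liver and 4 notochord genes. Sums over 6 epidermal genes were 60030 to 84740 and 46720 to 70770, and over 11 neural genes 2320 to 2545 and 1897 to 2028. Over 10 endoderm and liver genes they were 2427 to 2834 and 2438 to 2563, and over 6 notochord genes 1233 to 1515 and 1174 to 1464. The replicate block added 1 lower gene each for epidermis (foxi1.L, adjusted p = 0.0345), neural tissue (tubb2b.S, 0.0243) and endoderm and liver (hnf4a.S, 0.00747). The part of these tissues in the differences of the vascular and blood genes was not tested.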

How the data were processed

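The authors deposited 1 linear intensity for every probe set on every array; the submitters' processing notes name MAS5, without version or settings. All 6 columns had a 2% trimmed mean of about 500.1 and were used as deposited. The 120 Affymetrix controls were left out. Symbols came from the platform's gene table, updated by gene identifier to RefSeq (Xenopus_laevis_v10.1; 9227 matched, 77 kept older names), and the 195 probe sets that carry several symbols stayed unnamed. The test was limma's two-sided one (version 3.58.1, R 4.3.3; lmFit, then eBayes with a trend) on log2 signal, without the lowest 25% of probe sets, which left 11618, with Benjamini-Hochberg adjustment at 0.05. The fit was tested on simulated data with noise drawn independently for each array. Deviations shared by arrays of the same number were not simulated. Means ± SD are of linear signals, and folds are ratios of geometric means. The background level is the 95th percentile (37.6) over 44 bacterial and tag controls. In the lists, the brightest probe set of each gene was counted.

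The 7 genes and the lists were chosen with earlier results of these data known. The naming rule took all 7 genes, their tested relatives, in each list the genes that passed and up to 3 others with the smallest p, and the 4 probe sets most like fli1.S and hba3.L. Genes below background, untested globins, further probe sets of a gene, cxcr4.L, egfl7.S, cldn5.S, vegfa.L, gata1.L, kit.S, slc4a1.L, hebp2.S and tal1.S were named with their values known. Deviations from group means correlated at 0.407, 0.178 and 0.298 between arrays of the same number, each over 0.1, so the replicate number was used as a block in an alternative fit. Of the pairs with different numbers, untreated 2 with treated 3 (0.173) and untreated 3 with treated 2 (0.147) were also over 0.1, close to the 0.178 of the arrays numbered 2. What a number stands for is not labelled. Other alternatives were quantile normalization, a common median, an offset of 16, no filter or a 50% filter, array weights, no trend and leaving out single arrays.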

Additional observations from a re-analysis of the deposited data

How the results depend on the processing

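Precision is limited by having only 3 arrays in each group, and dim probe sets such as hba3.L are measured least well. The filters, the trend and the balanced replicate block cannot move a log2 difference. Under the other 11 alternatives, none of 77 differences of the 7 genes changed sign, and all stayed within 1 within-group SD of the value reported. Leaving out a single array from a group of 3 cannot shift a difference by that much. Where the groups do not overlap, it cannot change the sign, and nor can the offset, array weights or leaving out both arrays numbered 1. A common median moves the differences of all genes by the same amount. For most of the alternatives these outcomes were therefore largely fixed in advance, and nothing is read from any of them. The differences ranged on the log2 scale from -1.31 to -1.06 for fli1.S, -0.87 to -0.64 for cebpa.S, -0.76 to -0.64 for ank1.S, 0.53 to 0.65 for aplnr.S, 0.56 to 1.10 for aplnr.L, 0.81 to 1.46 for hba3.L and 0.09 to 0.43 for hba-l5.L. With 50% of probe sets left out, fli1.S, cebpa.S and hba3.L were too dim to be kept. For the tested C/EBP probe sets and the other list probe sets with an unadjusted limma p under 0.05, 293 of 323 values kept their side of the threshold. Of the rest, 23 lost and 7 gained a call, and none reversed. List probe sets with a larger p, the brightest of hebp2.S among them, are not in these counts. Over all tested probe sets, 86 were higher and 74 lower. These became 424 and 309 with the replicate block, 368 and 289 with array weights, 49 and 46 without the trend, and 338 and 243 without both arrays numbered 1, an alternative chosen after seeing the data; the cause was not tested. Leaving out single arrays gave 33 to 115 higher and 26 to 71 lower. Of the other endothelial receptor genes 0 were called, against 1 with the replicate block and 1 with array weights, cxcr4.S both times. Of the other erythroid genes 0 were called, against 1 with the replicate block (hebp2.S) and 1 with array weights, a different gene (ca2.L, log2 difference -0.40). Outside the 7 genes, the replicate block changed no other call of a vascular or blood list gene at its brightest probe set.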
